A study of Mus musculus with 12 samples.

Results

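Genes of the Wnt and beta-catenin pathway were examined in donor T cells with and without TCF-1. The set holds 40 genes, listed by name from the known parts of the pathway, out of 35907 genes in the gene table, and all 40 were found. They are 4 Wnt ligands, 2 genes of ligand secretion, 6 receptors, 2 genes of receptor turnover, 3 dishevelled genes, 9 genes of the destruction complex, 2 genes of axin turnover, beta-catenin itself (Ctnnb1), 3 coactivators of beta-catenin, 6 corepressors or inhibitors of beta-catenin, and 2 targets or feedback genes. RNA was sequenced from 12 libraries, 3 in each of 4 groups. The TCF-1 cKO Post-Tx and WT Post-Tx groups are donor T cells recovered by sorting from the spleens of irradiated BALB/c recipients at day 7 after allotransplantation, and the TCF-1 cKO Pre-Tx and WT Pre-Tx groups are splenic donor T cells sorted with no transplant. TCF-1 cKO donors carry floxed Tcf7 alleles and a Cre recombinase driven by the Cd4 promoter on a C57BL/6 background, so that Tcf7 is deleted in cells with a history of Cd4 expression. The methods use WT for the purchased B6-Ly5 strain, named apart from the Cre line, and elsewhere for C57BL/6 mice, while the TCF-1 cKO mice were bred by the authors. Cre itself, the strain or colony of the WT mice and the loss of Tcf7 thus cannot be told apart. All recipients also received T cell-depleted WT bone marrow, and mice were 8 to 12 weeks of age. The labels call all libraries CD4 T cells from separate biological replicates, whereas the methods name CD8 T cells for the Post-Tx sort, and the series description names CD8 T cells for the Pre-Tx sort and both kinds for the Post-Tx sort.

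In canonical Wnt signaling, a secreted Wnt protein binds a Frizzled receptor together with Lrp5 or Lrp6, and a dishevelled protein then stops the destruction complex of Axin, Apc, Gsk3 and casein kinases from marking beta-catenin for breakdown. Beta-catenin that is spared enters the nucleus and binds members of the TCF/LEF family, of which TCF-1 (Tcf7) and Lef1 are the main ones in T cells. Without beta-catenin these factors recruit Groucho/Tle corepressors, and with it they recruit coactivators such as Bcl9 and Pygo2. TCF-1 and Lef1 are required for T cell development in the thymus, and Axin2 is a widely used target and feedback inhibitor of the pathway.

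Libraries held 17103415 to 49486745 counts. Counts on Tcf7 gave no check of the deletion, as the files count whole transcripts, and Tcf7 had 177 ± 24.4 normalized CPM in TCF-1 cKO Pre-Tx libraries, against 177 ± 46.2 in WT Pre-Tx libraries (mean ± SD, n = 3 each). It had 104 ± 11 in TCF-1 cKO Post-Tx libraries, against 165 ± 14.8 in WT Post-Tx libraries (edgeR, adjusted p = 0.0669), where DESeq2 and limma with voom did call it lower. CPM are counts scaled to a common library size, and normalized CPM also use TMM factors from all 12 libraries. Cd4 was far above Cd8a in the Post-Tx libraries, at 631 ± 78.3 against 10 ± 2.59 normalized CPM in TCF-1 cKO and 1190 ± 174 against 4.2 ± 2.68 in WT. In the Pre-Tx libraries Cd4 was not above Cd8a, with 86.8 ± 15.5 against 85.9 ± 9.56 in TCF-1 cKO and 114 ± 52.1 against 169 ± 23.9 in WT. The 12 B cell markers together took 75.7 to 140 CPM in TCF-1 cKO Post-Tx libraries, against 61.3 to 118 in WT Post-Tx libraries, but 9840 to 10700 in TCF-1 cKO Pre-Tx libraries, against 7840 to 9160 in WT Pre-Tx libraries, with no marker at 0. The 13 T cell markers took 7540 to 7870 CPM in TCF-1 cKO Post-Tx libraries, against 9680 to 12000 in WT Post-Tx libraries, and 2210 to 2460 in TCF-1 cKO Pre-Tx libraries, against 3920 to 4700 in WT Pre-Tx libraries. So B cell markers outweighed T cell markers in every Pre-Tx library. In bulk RNA, fewer cells of a type and less RNA per cell cannot be told apart. Olfactory receptor genes, which are silent in most tissues outside the nose, served as a measure of background. Their 1407 genes together took 4480, 12000 and 6050 CPM in TCF-1 cKO Post-Tx libraries, against 1460, 3140 and 1090 in WT Post-Tx libraries, and 1400, 1550 and 879 in TCF-1 cKO Pre-Tx libraries, against 7010, 2530 and 4560 in WT Pre-Tx libraries. This sum was thus higher in TCF-1 cKO than in WT after transplant and lower before it, with no overlap at either stage.

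Per length of transcript, the most abundant members were intracellular. Over all 12 libraries, 4 of the 40 genes had a mean of at least 50 TPM (a level scaled for transcript length and library size), namely the casein kinases Csnk1d at 70.5 and Csnk1a1 at 64.8, Ctnnb1 at 50.6 and Myc at 50.6. A mean of at least 10 TPM was reached by 12 genes, and 8 genes were under 1 TPM. The 4 Frizzled genes, Wnt5a and Wnt10b were all under 2 TPM. Wnt4 reached 10.3 ± 5.58 TPM in TCF-1 cKO Post-Tx libraries and 1.83 ± 1.4 in WT Post-Tx libraries, and no Frizzled gene had a group mean above 2.02 TPM, the value of Fzd6 in TCF-1 cKO Post-Tx libraries.

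Promoter sequence was read for the members, since TCF-1 binds DNA at short sites that can be written as CTTTGAA or CTTTGAT and as CTTTGTA or CTTTGTT. RefSeq windows of 300 bases (250 before the transcript start and 50 after it, GRCm38.p6) were matched for 25 of the 40 members. Such a site on either strand, which are 4 spellings of 7 letters and their reverse complements, was found for 2 of these 25 members, Fzd7 and Gsk3a. Counted by window, 2 of the 35 windows of these members (5.71%) hold at least 1, against 5544 of 32851 (16.9%) in all promoters of the table. The Ctnnb1 and Wnt4 windows are shown because the results turn on these genes (Ctnnb1 has a second window, not shown), and the Fzd7 and Gsk3a windows as those with a match, in capitals.
Ctnnb1, chr9:120933150-120933449, plus strand: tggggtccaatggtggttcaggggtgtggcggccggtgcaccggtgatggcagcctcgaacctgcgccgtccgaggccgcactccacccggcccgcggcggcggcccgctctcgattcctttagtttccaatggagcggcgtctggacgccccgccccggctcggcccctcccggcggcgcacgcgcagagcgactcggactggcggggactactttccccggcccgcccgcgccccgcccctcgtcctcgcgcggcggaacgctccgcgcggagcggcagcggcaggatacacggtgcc
Wnt4, chr4:137277385-137277684, plus strand: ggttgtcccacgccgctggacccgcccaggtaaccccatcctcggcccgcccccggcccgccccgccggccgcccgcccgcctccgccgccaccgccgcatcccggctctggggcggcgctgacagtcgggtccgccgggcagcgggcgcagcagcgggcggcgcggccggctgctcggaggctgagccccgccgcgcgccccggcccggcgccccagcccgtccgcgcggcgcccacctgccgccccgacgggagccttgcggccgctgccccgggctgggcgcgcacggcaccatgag
Fzd7, chr1:59481897-59482196, plus strand: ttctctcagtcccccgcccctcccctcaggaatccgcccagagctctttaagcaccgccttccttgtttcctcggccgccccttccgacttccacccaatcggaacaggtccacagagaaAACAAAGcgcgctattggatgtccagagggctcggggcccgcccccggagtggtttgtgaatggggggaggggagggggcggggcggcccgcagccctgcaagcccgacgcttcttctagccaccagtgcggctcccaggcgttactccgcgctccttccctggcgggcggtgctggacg
Gsk3a, chr7:25237802-25238101, minus strand: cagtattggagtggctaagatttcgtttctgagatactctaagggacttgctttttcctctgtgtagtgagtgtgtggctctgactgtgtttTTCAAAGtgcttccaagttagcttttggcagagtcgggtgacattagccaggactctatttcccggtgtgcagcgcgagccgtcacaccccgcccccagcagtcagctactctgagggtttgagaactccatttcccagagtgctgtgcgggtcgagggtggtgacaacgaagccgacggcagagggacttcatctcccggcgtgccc
The match starts 130 bases before the transcript start in Fzd7 and 158 bases before it in Gsk3a, and in both it is the reverse complement of the site. No letters are in capitals in the Ctnnb1 and Wnt4 windows, which says only that none of these spellings occurs there. Neither Fzd7 nor Gsk3a passed in any comparison under any setting tried. Fzd7 had 1.17, 1.23 and 0.333 normalized CPM in TCF-1 cKO Post-Tx libraries, against 0.264, 0.505 and 0.341 in WT Post-Tx libraries, and Gsk3a had 9.16, 8.3 and 8.94 in TCF-1 cKO Post-Tx libraries, against 14.8, 7.07 and 12.8 in WT Post-Tx libraries, with overlap in both cases.

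The gene for beta-catenin was higher in TCF-1 cKO than in WT cells before transplant. Of the 38 members tested in the 6 Pre-Tx libraries, 3 were higher in TCF-1 cKO and 0 were lower by edgeR's quasi-likelihood test at an adjusted p under 0.05, and 35 did not pass. These are 7.89% of the members tested, against 14.2% of all 17021 genes tested, of which 8.52% were higher and 5.65% lower. The count of all genes, 2413, was 14 without WT Pre-Tx replicate 1, 981 without WT Pre-Tx replicate 3, and 517, 967 and 1236 without TCF-1 cKO Pre-Tx replicates 1, 2 and 3. At an unadjusted p under 0.05, 6 members were higher and 3 lower. DESeq2 called 5 higher and 2 lower, limma with voom 3 higher and 1 lower. The median log2 fold change of the members was 0.28, and that of all genes tested was -0.11. Upper-quartile normalization gave 636 higher and 2070 lower genes against 1451 and 962 with TMM, and 1 higher and 2 lower members.

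Ctnnb1 (chromosome 9, 120929216 to 120960507, plus strand, GRCm38) had 212, 200 and 182 normalized CPM in TCF-1 cKO Pre-Tx libraries, against 75.6, 91.1 and 46.8 in WT Pre-Tx libraries. Every TCF-1 cKO library was above every WT library. The log2 fold change was 1.46 ± 0.26 (SE, adjusted p = 0.0102, edgeR), with fold changes fitted on the TMM factors of the 6 libraries of the stage. Without WT Pre-Tx replicate 1 the change was 1.48 with an adjusted p of 0.0715, and it passed with each of the other 5 libraries left out and under the 10 other settings tried. Of the Ctnnb1 counts, 92.1% to 97.3% fell on protein-coding transcripts in TCF-1 cKO Pre-Tx libraries, against 82.5% to 86.7% in WT Pre-Tx libraries, and with protein-coding transcripts alone the change was 1.47 (adjusted p = 0.0166). The olfactory receptor sum was lower in the same TCF-1 cKO libraries, and 8 of 13 T cell markers were called lower there. The calls also took in 6 of 12 B cell markers, 3 of 7 NK cell markers and 3 of 11 myeloid markers, all higher. The NK cell markers together took 459 to 493 CPM in TCF-1 cKO Pre-Tx libraries, against 115 to 210 in WT Pre-Tx libraries, and the myeloid markers 3220 to 3370, against 2740 to 3740. The part of these in the result was not tested.

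Csnk1a1, a kinase that makes the priming phosphorylation on beta-catenin, and Wls, which carries Wnt proteins to the cell surface, were the other members that rose before transplant. Csnk1a1 had 173, 186 and 146 normalized CPM in TCF-1 cKO Pre-Tx libraries, against 90.5, 92.7 and 33 in WT Pre-Tx libraries (log2 fold change 1.22 ± 0.33, adjusted p = 0.0339, edgeR). Wls had 32.6, 69.7 and 57.9 in TCF-1 cKO Pre-Tx libraries, against 21.3, 24.4 and 12.9 in WT Pre-Tx libraries (1.42 ± 0.36, adjusted p = 0.0281). Groups of libraries did not overlap for either gene. The call of Csnk1a1 was lost without any of 5 of the 6 libraries (all but TCF-1 cKO Pre-Tx replicate 3, adjusted p 0.0553 to 0.0946), and that of Wls without TCF-1 cKO Pre-Tx replicate 2 or 3 or WT Pre-Tx replicate 1 or 3 (0.0641 to 0.103). Neither gene passed with upper-quartile normalization, and Wls did not pass on log2(TPM + 1). On protein-coding transcripts alone neither passed (adjusted p = 0.0606 for Csnk1a1 and 0.137 for Wls), and 47.04% of all Wls counts lay on Wls-206, a transcript annotated as subject to nonsense-mediated decay.

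The other named members did not pass before transplant by edgeR. Axin2, at 0.576, 0.551 and 0.693 normalized CPM in TCF-1 cKO Pre-Tx libraries, against 1.9, 1.05 and 3.45 in WT Pre-Tx libraries, was lower in every TCF-1 cKO library (log2 fold change -1.89 ± 0.88, adjusted p = 0.153, edgeR). Myc, a growth regulator and target gene, had 86.9, 147 and 144 in TCF-1 cKO Pre-Tx libraries, against 62, 80.1 and 110 in WT Pre-Tx libraries (0.51 ± 0.3, adjusted p = 0.247), and the groups overlapped. Wnt4, a ligand best known for its part in kidney and gonad development, had 4.35, 5.47 and 2.67 in TCF-1 cKO Pre-Tx libraries, against 14.6, 3.63 and 15.2 in WT Pre-Tx libraries (-1.46 ± 0.67, adjusted p = 0.148), and again the groups overlapped. Wnt5a, a ligand that mostly signals without beta-catenin, lay closest to the threshold, with 0.576, 0.424 and 0.891 in TCF-1 cKO Pre-Tx libraries, against 4.05, 3.22 and 3.7 in WT Pre-Tx libraries (-2.59 ± 0.8, adjusted p = 0.0507). Its libraries did not overlap, and it was called lower with upper-quartile normalization, by DESeq2, by limma with voom and with all 12 libraries in 1 fit. By normalized CPM, 12 of the 38 members tested were above WT in every library (31.6%, against 21.3% of all genes tested), 3 were below it (7.89%, against 19.9%), and 23 overlapped. Wnt10b and Fzd1 did not pass the filter on low counts.

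**Figure D1:**
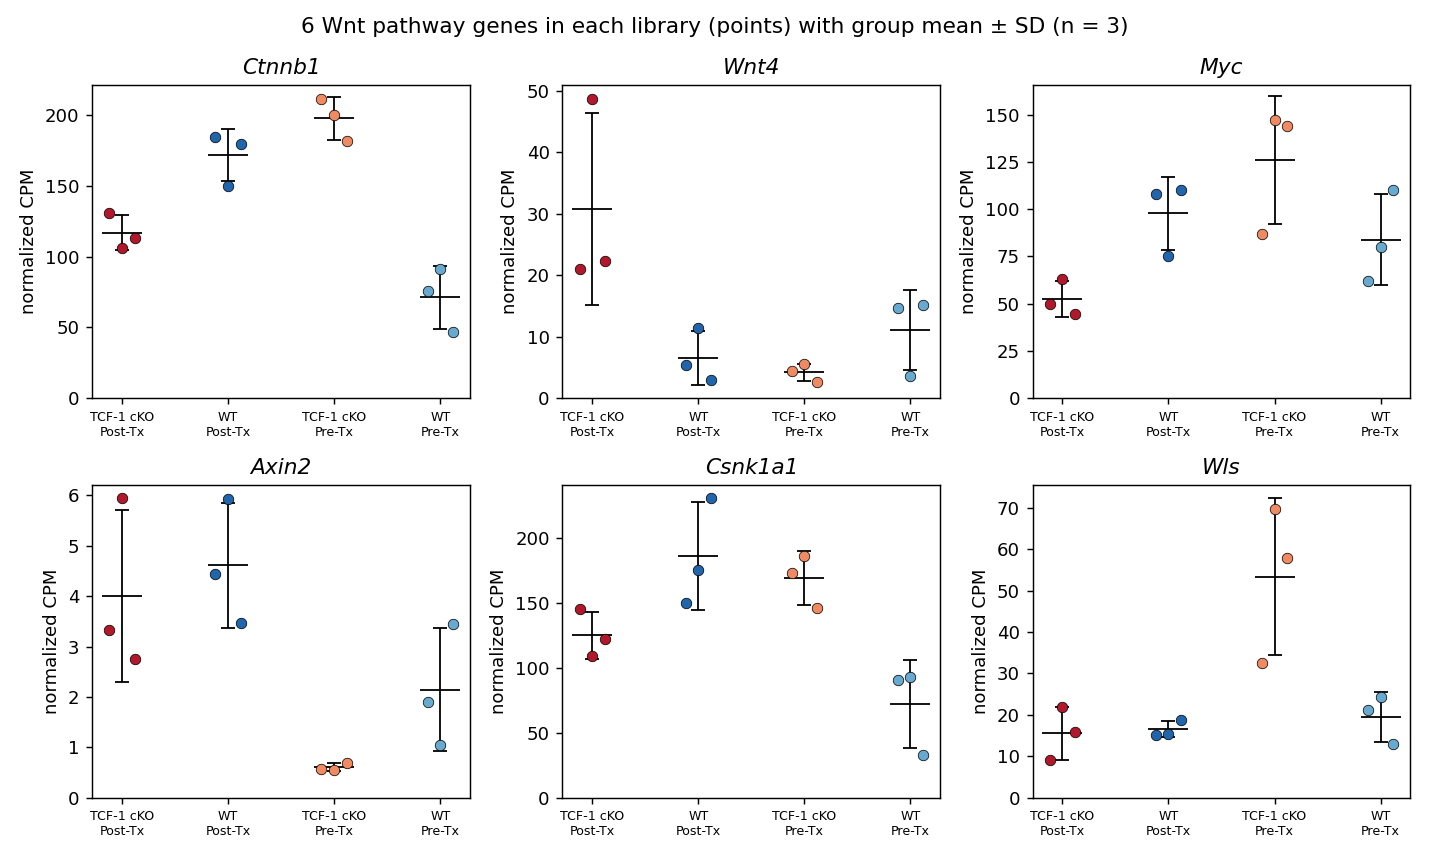
Normalized CPM (vertical axis) of Ctnnb1, Wnt4, Myc, Axin2, Csnk1a1 and Wls in each of the 12 libraries by group (horizontal axis), with points for libraries and black bars for mean ± SD (n = 3). TCF-1 cKO Post-Tx libraries lie below WT Post-Tx for Ctnnb1 (106 to 131 against 150 to 185), and TCF-1 cKO Pre-Tx libraries lie above WT Pre-Tx (182 to 212 against 46.8 to 91.1).

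After transplant the changed members were a ligand and a target gene. Of the 37 members tested in the 6 Post-Tx libraries, Wnt4 was higher and Myc lower in TCF-1 cKO by edgeR, and 35 did not pass. These are 5.41% of the members tested, against 6.65% of all 19287 genes tested, of which 3.52% were higher and 3.13% lower. The count of all genes, 1283, was 6 without TCF-1 cKO Post-Tx replicate 2, 445 without TCF-1 cKO Post-Tx replicate 3, and 64, 3209 and 325 without WT Post-Tx replicates 1, 2 and 3. The median log2 fold change of the members was -0.08, and that of all genes 0.09. Upper-quartile normalization gave 687 higher and 111 lower genes against 679 and 604 with TMM, and Wnt4 alone among the members. At an unadjusted p under 0.05, 4 members were higher and 7 lower. DESeq2 called 1 higher and 1 lower, limma with voom 2 higher and 1 lower. Among the markers, 11 of 13 T cell markers were lower and 5 of 7 erythroid markers higher in TCF-1 cKO, and their part in these results was not tested. Wnt10a, Wnt10b and Fzd1 did not pass the filter on low counts.

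Wnt4 (chromosome 4, 137277489 to 137299726, plus strand) had 21, 48.6 and 22.3 normalized CPM in TCF-1 cKO Post-Tx libraries, against 5.37, 11.4 and 2.9 in WT Post-Tx libraries. Every TCF-1 cKO library was above every WT library, and the highest value in TCF-1 cKO came from replicate 2. The log2 fold change was 2.19 ± 0.48 (adjusted p = 0.0233, edgeR). It was 1.71 (adjusted p = 0.172) without TCF-1 cKO Post-Tx replicate 2 and 2.02 (adjusted p = 0.0939) without WT Post-Tx replicate 1, and it did not pass with all 12 libraries in 1 fit (adjusted p = 0.064) or on log2(TPM + 1) (adjusted p = 0.053). All Wnt4 counts belong to the 1 transcript annotated for the gene. The 6 Post-Tx libraries came in the same order by Wnt4 and by the olfactory receptor sum, from TCF-1 cKO replicate 2 at the top to WT replicate 3 at the bottom. Other members also followed this sum in the Post-Tx libraries, in either direction, while some did not. The rank correlation (Spearman) was 0.94 for Wnt5a, -0.94 for Ctnnb1 and Csnk1d, -0.83 for Myc and 0.09 for Axin2. The part of this background in the results of Wnt4 and of these members was not tested.

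Myc (chromosome 15, 61985391 to 61990374, plus strand) had 49.9, 63.1 and 44.3 normalized CPM in TCF-1 cKO Post-Tx libraries, against 108, 75.3 and 110 in WT Post-Tx libraries. By this measure it was lower in every TCF-1 cKO library, with a log2 fold change of -0.89 ± 0.25 (adjusted p = 0.0414, edgeR). In TPM the groups overlapped, at 34.4 to 50.9 in TCF-1 cKO, against 49.9 to 68 in WT. The call held without WT Post-Tx replicate 2 (adjusted p = 0.022) and was lost without any 1 of the other 5 libraries (0.0594 to 0.158). It was also lost under 5 of the 10 other settings. These were upper-quartile normalization (-0.6, adjusted p = 0.112), a mean CPM of at least 10, protein-coding transcripts, log2(TPM + 1) and all 12 libraries in 1 fit.

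Ctnnb1 and Axin2 did not pass after transplant. Ctnnb1 had 131, 106 and 113 normalized CPM in TCF-1 cKO Post-Tx libraries, against 185, 150 and 180 in WT Post-Tx libraries (log2 fold change -0.55 ± 0.22, adjusted p = 0.107, edgeR). By this measure every TCF-1 cKO library was below every WT library, the reverse of the order before transplant. In TPM the Post-Tx groups overlapped, at 49.6 to 60.3 in TCF-1 cKO, against 58.9 to 66.1 in WT. Axin2 had 3.32, 5.94 and 2.75 in TCF-1 cKO Post-Tx libraries, against 4.43, 5.92 and 3.47 in WT Post-Tx libraries (-0.22 ± 0.62, adjusted p = 0.809), with groups that overlapped, and the sign turned to 0.06 with upper-quartile normalization. Porcn, the enzyme that adds the lipid Wnt proteins need for secretion, was nearly absent, with 0.374, 1.43 and 0.874 in TCF-1 cKO Post-Tx libraries, against 0.022, 0.135 and 0.0853 in WT Post-Tx libraries (3.44 ± 1.23, adjusted p = 0.0792). By normalized CPM, 5 of the 37 members tested were above WT in every library (13.5%, against 22.8% of all genes tested), 7 were below it (18.9%, against 16.9%), and 25 overlapped.

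**Figure D2:**
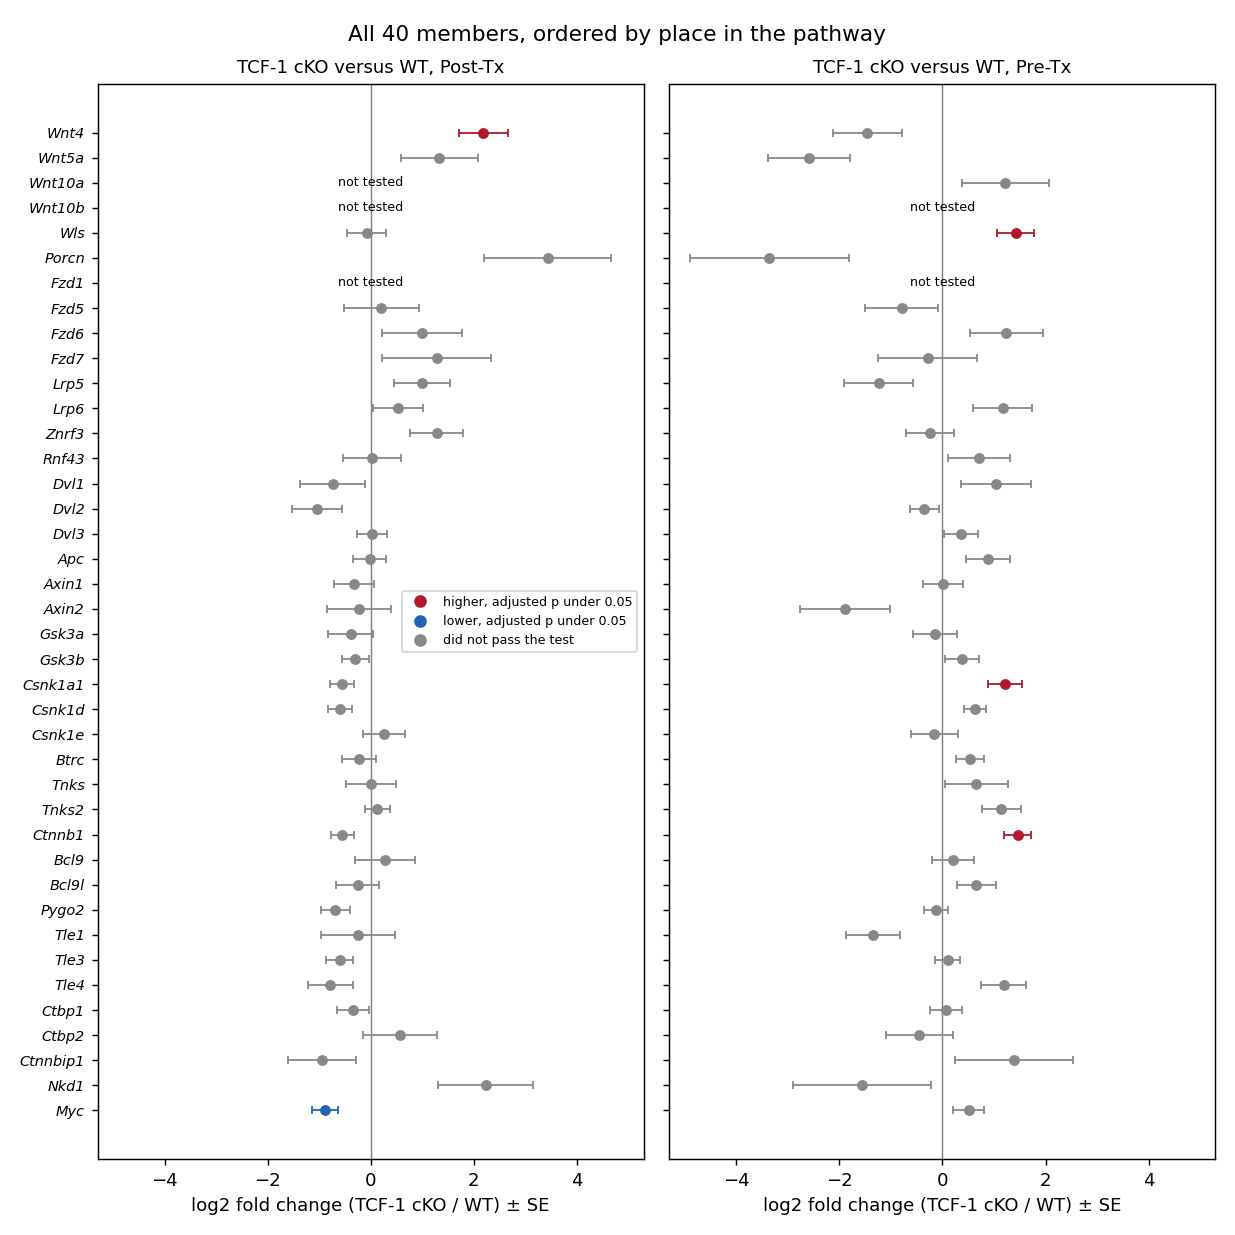
Log2 fold change of TCF-1 cKO over WT ± SE (horizontal axis) for the 40 members from ligands at the top to targets at the bottom, Post-Tx on the left and Pre-Tx on the right (n = 3 per group). Wnt4 (2.19) and Myc (-0.89) passed the test Post-Tx, and Ctnnb1 (1.46), Wls (1.42) and Csnk1a1 (1.22) Pre-Tx.

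The genotype effect differed between the stages for 9 members, by the interaction of genotype and transplant in all 12 libraries. All 40 members passed the filter, and 3 were higher (a more positive effect of TCF-1 loss after transplant) and 6 lower, or 22.5%. Among all 21434 genes 28.6% were called, 17.1% higher and 11.5% lower. The median was -0.43 for the members and 0.37 for all genes. Upper-quartile normalization moved the split of all genes to 4865 higher and 720 lower, against 3665 and 2469, and that of the members to 4 higher and 2 lower.

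The members with a lower value were the secretion gene Wls, the target gene Myc and parts of the cytoplasmic and nuclear machinery. Ctnnb1 had an interaction of -2.04 ± 0.34 on the log2 scale (adjusted p = 0.00234, edgeR), Csnk1a1 of -1.79 ± 0.44 (adjusted p = 0.0104) and Wls of -1.53 ± 0.55 (adjusted p = 0.0467). Csnk1a1 had 145, 109 and 122 normalized CPM in TCF-1 cKO Post-Tx libraries, against 150, 175 and 231 in WT Post-Tx libraries. Like Ctnnb1, it lay below WT in every library after transplant by this measure, and above it before. Csnk1d, a second casein kinase, had 201, 147 and 156 in TCF-1 cKO Post-Tx libraries, against 292, 206 and 269 in WT Post-Tx libraries, and 277, 285 and 287 in TCF-1 cKO Pre-Tx libraries, against 162, 230 and 144 in WT Pre-Tx libraries (interaction -1.27 ± 0.32, adjusted p = 0.012). Its libraries turned round in the same way. The Groucho corepressor Tle4 had 7.71, 6.54 and 6.7 in TCF-1 cKO Post-Tx libraries, against 12.2, 12.8 and 10.9 in WT Post-Tx libraries, and 20.3, 49.7 and 28.1 in TCF-1 cKO Pre-Tx libraries, against 9.64, 17.2 and 14.7 in WT Pre-Tx libraries (-2.02 ± 0.56, adjusted p = 0.0173). Tle4 likewise lay below WT in every library after transplant and above it before. For Myc the interaction was -1.48 ± 0.4 (adjusted p = 0.0147), and for Wls, at 9.11, 22 and 15.8 in TCF-1 cKO Post-Tx libraries, against 15.2, 15.5 and 18.7 in WT Post-Tx libraries, the Post-Tx groups overlapped.

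The members with a higher value were genes of ligands and ligand secretion. Wnt4 had an interaction of 3.64 ± 0.86 (adjusted p = 0.00823, edgeR) and Wnt5a of 3.87 ± 1.02 (adjusted p = 0.0138). Wnt5a had 2.71, 6.47 and 2.91 normalized CPM in TCF-1 cKO Post-Tx libraries, against 0.727, 2.46 and 1.59 in WT Post-Tx libraries, so it lay above WT in every library after transplant and below it before. Porcn had an interaction of 6.8 ± 2.06 (adjusted p = 0.0237) from very few counts, with 0.89, 0 and 0 in TCF-1 cKO Pre-Tx libraries, against 4.79, 0.41 and 4.01 in WT Pre-Tx libraries. With upper-quartile normalization Csnk1d (adjusted p = 0.118), Tle4 (0.0886), Myc (0.162) and Wls (0.225) no longer passed. Wnt4, Wnt5a and Ctnnb1 were called in the interaction with each of the 12 libraries left out in turn, as were Csnk1a1, Csnk1d and Myc. Porcn lost the call without 4 of the 12 libraries (TCF-1 cKO Post-Tx replicate 2, WT Post-Tx replicate 1 or 3, WT Pre-Tx replicate 1), Wls without 8 (all but TCF-1 cKO Post-Tx replicate 2, TCF-1 cKO Pre-Tx replicate 1 and WT Pre-Tx replicates 2 and 3) and Tle4 without TCF-1 cKO Pre-Tx replicate 2. Of the 37 members tested at both stages, the genotype effect had opposite signs for 25 (67.6%) and the same sign for 12, and it had opposite signs for 65.6% of the 16360 genes tested at both. The olfactory receptor sum also changed sides between the stages, and 362 of the 704 olfactory receptor genes tested were called higher in the interaction and 0 lower by edgeR, with 503 higher and 2 lower at an unadjusted p under 0.05 and 418 higher and 1 lower by DESeq2. The part of this background in the members' interactions was not tested.

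**Figure D3:**
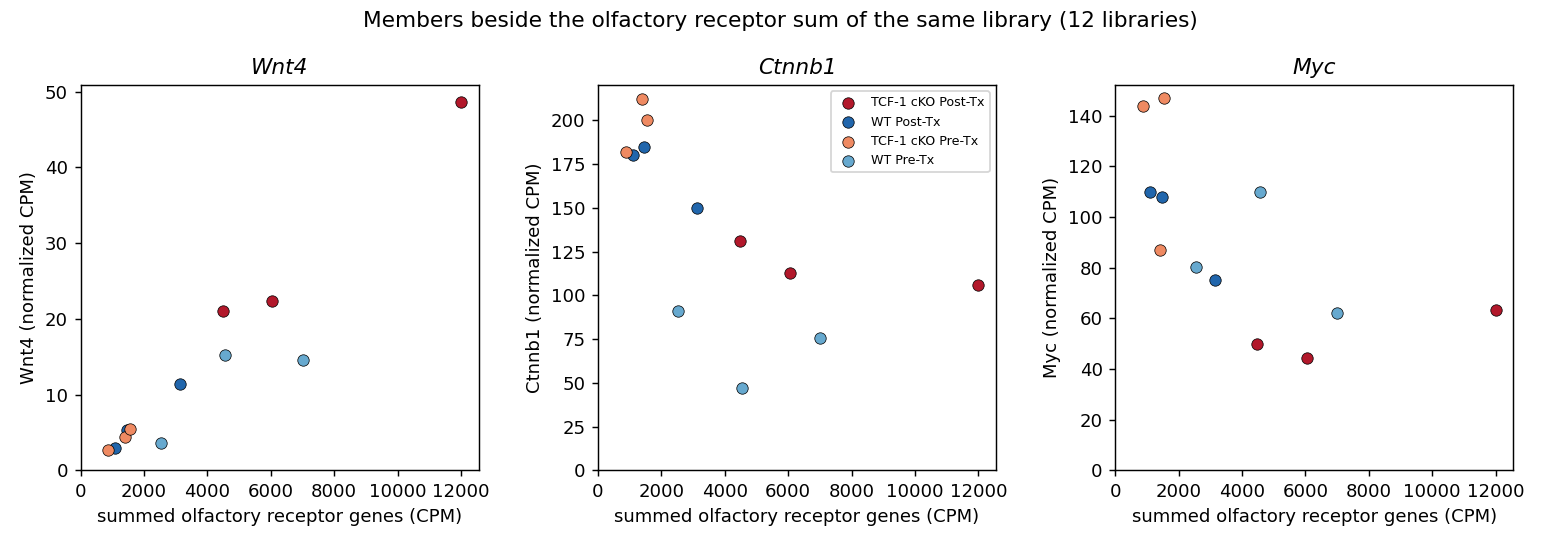
Normalized CPM of Wnt4, Ctnnb1 and Myc (vertical axes) against the summed CPM of 1407 olfactory receptor genes (horizontal axis) in the 12 libraries, colored by group. Wnt4 is highest, at 48.6, in the TCF-1 cKO Post-Tx library with the highest sum, 12000 CPM, and Ctnnb1 is lowest among Post-Tx libraries there, at 106.

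Between Post-Tx and Pre-Tx cells, day, host, activation and cell make-up differ together and cannot be told apart. In TCF-1 cKO cells 9 of 40 members passed an adjusted p under 0.05 with an absolute log2 change of 1 or more, 3 higher and 6 lower in Post-Tx, or 22.5%. Among all 21434 genes 23.8% were called, 13.8% higher and 9.99% lower. In WT cells 5 members passed, 2 higher and 3 lower, or 12.5%, against 19.5% of all genes, 9.83% higher and 9.62% lower. The median log2 fold change was -0.43 for the members and 0.36 for all genes in TCF-1 cKO, and -0.22 and -0.41 in WT. Upper-quartile normalization gave 4177 higher and 1248 lower genes in TCF-1 cKO, against 2949 and 2142, and 1409 and 2849 in WT, against 2107 and 2062, with 3 higher and 4 lower members in TCF-1 cKO and 1 higher and 4 lower in WT.

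In WT cells Ctnnb1 and Csnk1a1 rose with transplant, a comparison that shares its WT Pre-Tx libraries with the genotype comparison before transplant. Csnk1a1 rose by 1.36 ± 0.32 on the log2 scale in WT (adjusted p = 0.00502, edgeR) and had a change of -0.43 ± 0.31 in TCF-1 cKO (adjusted p = 0.297). Ctnnb1 rose by 1.27 ± 0.24 in WT (adjusted p = 0.00122), and its change in TCF-1 cKO was -0.76 ± 0.24 (adjusted p = 0.0289), which is under the fold limit. The interaction given above is the test of this difference between genotypes. With upper-quartile normalization Ctnnb1 in WT fell just short of the fold limit, while its adjusted p stayed under 0.05 in every setting tried. Its WT call held under 8 of the 9 other settings tried and with each of the 12 libraries left out in turn. Among the falls in WT was Dvl2, a dishevelled gene that passes the signal on from the receptors and was the only member called in both genotypes by edgeR. It had 3.6, 12.3 and 5.41 normalized CPM in TCF-1 cKO Post-Tx libraries, against 37.5, 27.7 and 37.9 in TCF-1 cKO Pre-Tx libraries (-2.27 ± 0.42, adjusted p = 0.00109), and 19.4, 13.1 and 10.7 in WT Post-Tx libraries, against 41.9, 43.6 and 41.7 in WT Pre-Tx libraries (-1.56 ± 0.41, adjusted p = 0.012). All Post-Tx libraries lay below all Pre-Tx libraries, and the WT call was lost without WT Post-Tx replicate 3 (adjusted p = 0.068). The corepressor Tle1 fell by 2.2 in WT (adjusted p = 0.0181) and had -1.18 ± 0.61 in TCF-1 cKO (adjusted p = 0.149). Porcn fell by 5.2 in WT (adjusted p = 0.025) and had 1.6 ± 1.37 in TCF-1 cKO (adjusted p = 0.376), and the WT call was lost without any 1 of 5 WT libraries (all but WT Pre-Tx replicate 2, adjusted p 0.0512 to 0.0905). That of Tle1 was lost without WT Pre-Tx replicate 1 or 3 or WT Post-Tx replicate 1 or 2 (0.0527 to 0.0875).

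In TCF-1 cKO cells the rises were Wnt4 (2.88 ± 0.63, adjusted p = 0.00364), Axin2 (2.71 ± 0.71, adjusted p = 0.0113) and Wnt5a (2.67 ± 0.75, adjusted p = 0.0164). By normalized CPM, Axin2 in WT was also higher in every Post-Tx than in every Pre-Tx library (1.11 ± 0.67, adjusted p = 0.238), and its interaction did not pass (1.61 ± 0.95, adjusted p = 0.197, edgeR). In TPM these WT groups overlapped, at 0.934 to 2.02 Post-Tx, against 0.542 to 1.67 Pre-Tx. The Axin2 call was lost without TCF-1 cKO Post-Tx replicate 2 (adjusted p = 0.0508), and that of Wnt5a without this library or TCF-1 cKO Pre-Tx replicate 1 or 2 (0.0544 to 0.0787). The falls in TCF-1 cKO were Dvl2, Tle4 (-2.23 ± 0.41, adjusted p = 0.00102), Wls (-1.77 ± 0.4, adjusted p = 0.00437), the F-box protein of the complex that ubiquitinates beta-catenin, Btrc (-1.47 ± 0.3, adjusted p = 0.00245), Myc (-1.26 ± 0.29, adjusted p = 0.00453) and the coactivator Bcl9l (-1.17 ± 0.42, adjusted p = 0.0484). Bcl9l lost the call without any 1 of 9 libraries (all but WT Pre-Tx replicate 3 and WT Post-Tx replicates 1 and 2), and Myc met the fold limit no longer without TCF-1 cKO Pre-Tx replicate 3 (adjusted p = 0.0402). Bcl9l also lost it under 6 of the 9 other settings. Myc lost it under 3, which were upper-quartile normalization, a mean CPM of at least 10 and log2(TPM + 1), and Wls on log2(TPM + 1) only. The 12 B cell markers all fell with transplant in both genotypes, by a median of 6.85 on the log2 scale in TCF-1 cKO cells and by 7.07 in WT cells. Among the T cell markers 12 of 13 rose in TCF-1 cKO and 11 of 13 in WT. The NK cell markers fell for 6 of 7 in TCF-1 cKO and for 4 of 7 in WT, where 1 rose, and the erythroid markers for 6 and 7 of 7. Of the 704 olfactory receptor genes tested, 270 rose and 1 fell in TCF-1 cKO, and 1 rose and 102 fell in WT. The part of these changes in those of the members was not tested.

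**Figure D4:**
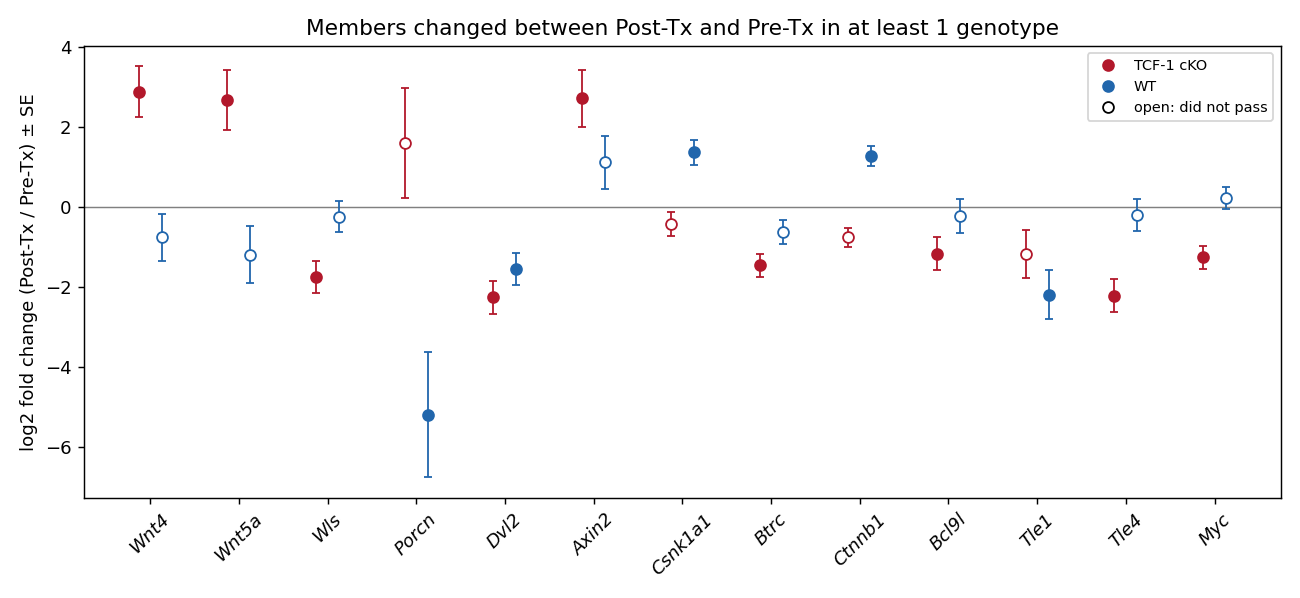
Log2 fold change of Post-Tx over Pre-Tx ± SE (vertical axis) for the members that passed in at least 1 genotype (horizontal axis), TCF-1 cKO in red and WT in blue, with open points for changes that did not pass. Dvl2 is filled in both genotypes (-2.27 and -1.56), and Ctnnb1 is filled in WT (1.27) and open in TCF-1 cKO (-0.76).

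Among the receptors, none of Fzd1, Fzd5, Fzd6, Fzd7, Lrp5 and Lrp6 passed in any of the 5 comparisons by edgeR, and at an unadjusted p under 0.05 only Lrp5 was found, in the interaction (0.0168) and with transplant in TCF-1 cKO (0.0452). Fzd6 had 2.1, 4.58 and 1.83 normalized CPM in TCF-1 cKO Post-Tx libraries, against 1.17, 1.35 and 1.73 in WT Post-Tx libraries, and 6.39, 4.92 and 4.01 in TCF-1 cKO Pre-Tx libraries, against 2.82, 1.23 and 2.28 in WT Pre-Tx libraries. By this measure it lay above WT in every library at both stages without passing (adjusted p = 0.359 Post-Tx and 0.239 Pre-Tx). In TPM its groups overlapped at both stages, at 1.2 to 3.32 in TCF-1 cKO, against 0.473 to 1.47 in WT Post-Tx. Pre-Tx they had 1.06 to 1.8, against 0.252 to 2.9. Lrp5, a coreceptor, was nearest in the interaction (2.24 ± 0.85, adjusted p = 0.0554), and it passed there by DESeq2, with upper-quartile normalization and without WT Pre-Tx replicate 2. Fzd1 passed in the interaction without TCF-1 cKO Pre-Tx replicate 3. Neither Znrf3 nor Rnf43, ubiquitin ligases that remove Frizzled from the cell surface, passed by edgeR, while Znrf3 was called after transplant by limma with voom, with the replicate block and without WT Post-Tx replicate 2. Within the destruction complex, Apc, Axin1, Gsk3a, Gsk3b and Csnk1e did not pass in any comparison by edgeR, with genotype changes between -0.39 and 0.88. Of these, Gsk3b passed with transplant in WT on log2(TPM + 1) and without WT Pre-Tx replicate 1. The tankyrase Tnks2, which marks axin for breakdown, had 90.5, 54.4 and 35 in TCF-1 cKO Pre-Tx libraries, against 34.9, 24.2 and 22.1 in WT Pre-Tx libraries (1.14 ± 0.38, adjusted p = 0.0662). By this measure it lay above WT in every library, and it was called higher by DESeq2 and under 4 other settings. In TPM the Pre-Tx groups overlapped (16.1 to 51.3 in TCF-1 cKO, against 22.8 to 38.5 in WT), and it was not called on log2(TPM + 1). Bcl9 and Pygo2 among the coactivators, Tle3, Ctbp1, Ctbp2 and Ctnnbip1 among the corepressors and inhibitors, Dvl1, Dvl3, Tnks, Nkd1, Wnt10a and Wnt10b did not pass in any comparison by edgeR. For transplant, DESeq2 called Dvl1 in TCF-1 cKO and Bcl9 in both genotypes, and limma with voom called Wnt10a in TCF-1 cKO, Ctnnbip1 in WT and Bcl9 in both.

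Lists of other pathway genes were read from the same fits. Of 17 other nuclear components, 4 were higher and 1 lower in TCF-1 cKO before transplant by edgeR, against 8.52% and 5.65% of all genes. DESeq2 called 6 higher and 1 lower, limma with voom 4 and 1. The acetyltransferase Ep300, a coactivator of beta-catenin, averaged 89.9 ± 12.5 normalized CPM in TCF-1 cKO Pre-Tx libraries, against 32 ± 13.2 in WT Pre-Tx libraries (log2 fold change 1.48 ± 0.32, adjusted p = 0.0171, edgeR). Tbl1xr1, which exchanges corepressors for coactivators, averaged 62.9 ± 4.98 in TCF-1 cKO Pre-Tx libraries, against 24.1 ± 8.29 in WT Pre-Tx libraries (1.37 ± 0.31, adjusted p = 0.0196). Crebbp was also higher (0.94 ± 0.24, adjusted p = 0.0272), while Tle5, a short Groucho relative that lacks the repressor domains, averaged 32 ± 3.2 in TCF-1 cKO Pre-Tx libraries, against 64.8 ± 8.18 in WT Pre-Tx libraries (-1.07 ± 0.28, adjusted p = 0.0298). After transplant Ep300 was lower, at 30.8 ± 3.62 in TCF-1 cKO Post-Tx libraries, against 60.7 ± 9.6 in WT Post-Tx libraries (-0.97 ± 0.26, adjusted p = 0.04), and was the 1 nuclear component called by edgeR, while DESeq2 called 1 higher and 3 lower. In the interaction, where 11.5% of all genes were lower, 6 of the 17 were lower and 0 higher by edgeR, with 8 lower and 2 higher at an unadjusted p under 0.05 and 8 lower and 1 higher by DESeq2. Limma with voom called 6 lower and 1 higher.

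For comparison with the lists below, edgeR called 8.52% of all genes tested higher and 5.65% lower before transplant. After transplant it called 3.52% higher and 3.13% lower. Among 17 other cytoplasmic components, of which 15 were tested before transplant, 2 were higher then by edgeR, the F-box protein Fbxw11 (1.01 ± 0.29, adjusted p = 0.0393) and the axin ubiquitin ligase Rnf146 (1.13 ± 0.34, adjusted p = 0.0464). DESeq2 called 5 higher and 1 lower there, limma with voom 0. After transplant 1 was higher by edgeR, the phosphatase subunit Ppp2r5a (0.99 ± 0.26, adjusted p = 0.0354), which had -0.92 ± 0.31 before transplant (adjusted p = 0.0647), and DESeq2 called 2 higher. None of the other ligands was called by genotype at either stage by edgeR, with 5 of 19 tested before transplant and 7 after it, and at an unadjusted p under 0.05 only 1 was higher after transplant. DESeq2 and limma with voom also called 0. Of 13 other receptors 7 were tested before and 11 after transplant with 0 called by edgeR, and at an unadjusted p under 0.05 there were 1 lower before and 5 higher after transplant. DESeq2 called 1 lower before and 2 higher after, limma with voom 0 before and 1 higher after. The secreted antagonist Sfrp4 was the 1 of 10 antagonists tested that edgeR called before transplant, at 0.192 ± 0.0205 in TCF-1 cKO Pre-Tx libraries, against 2.01 ± 0.726 in WT Pre-Tx libraries (-3.36 ± 0.92, adjusted p = 0.0352), and had 1.97 ± 0.87 after transplant (adjusted p = 0.133). DESeq2 called it lower too, with Apcdd1, and limma with voom called 0 there. Sostdc1, a secreted antagonist of Lrp coreceptors and BMPs, was the 1 antagonist of 12 tested that edgeR called after transplant, at 3.27 ± 2 in TCF-1 cKO Post-Tx libraries, against 55.2 ± 6.67 in WT Post-Tx libraries (-4.08 ± 0.4, adjusted p = 5.18e-05). DESeq2 called 2 higher (Sfrp1 and Apcdd1) and 2 lower (Sostdc1 and Kremen2), limma with voom the same less Kremen2. Ligand and receptor genes were counted at few reads. In the interaction edgeR called 2 of 15 ligands and 3 of 11 receptors tested higher and 0 lower. Of 12 antagonists tested, 4 were higher and 1 lower there. Among all genes tested in the interaction, 17.1% were higher and 11.5% lower.

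None of the 4 TCF/LEF genes was called by genotype at either stage by edgeR, with 1 lower before transplant and 1 higher and 2 lower after it at an unadjusted p under 0.05. DESeq2 and limma with voom each called 0 before transplant and 1 higher and 1 lower after it. Lef1, the partner of TCF-1 in T cells, averaged 75.2 ± 5.07 normalized CPM in TCF-1 cKO Post-Tx libraries, against 113 ± 25.8 in WT Post-Tx libraries, and 116 ± 9.87 in TCF-1 cKO Pre-Tx libraries, against 160 ± 11.1 in WT Pre-Tx libraries (adjusted p = 0.108 Post-Tx and 0.124 Pre-Tx). Of 17 Wnt target genes, which include Axin2, Nkd1, Myc, Znrf3 and Rnf43 of the members and also Lef1 and Tcf7, Cd44 was higher before transplant (0.84 ± 0.23, adjusted p = 0.0333) and Myc lower after it by edgeR. DESeq2 also called Apcdd1 lower before transplant and higher after it. Cd44, an adhesion receptor that is also a marker of T cell activation, averaged 128 ± 6.78 in TCF-1 cKO Pre-Tx libraries, against 69.2 ± 6.93 in WT Pre-Tx libraries, and 117 ± 24.1 in TCF-1 cKO Post-Tx libraries, against 167 ± 29.4 in WT Post-Tx libraries.

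The transcripts that carried the counts of the members also differed between groups. Summed over the 40 members, protein-coding transcripts held 92.5%, 83.9% and 88.6% of counts in TCF-1 cKO Post-Tx and 94.3%, 92.9% and 94.7% in WT Post-Tx libraries. Before transplant they held 92.1%, 93.6% and 93.6% in TCF-1 cKO Pre-Tx and 85.1%, 91.5% and 88.1% in WT Pre-Tx libraries. The groups did not overlap at either stage, and the direction turned round. Transcripts annotated as retained introns made up most of the difference, with 6.27%, 13.2% and 9.59% in TCF-1 cKO Post-Tx and 4.04%, 5.35% and 3.62% in WT Post-Tx libraries, and 5.59%, 3.86% and 2.73% in TCF-1 cKO Pre-Tx and 11.6%, 6.44% and 8.64% in WT Pre-Tx libraries. Of the members with any count on other transcripts, 9 of 30 (30%) had a lower protein-coding share in every TCF-1 cKO than in every WT library after transplant and 0 a higher one, against 18.8% lower and 2.94% higher of 11579 such genes among all tested. Before transplant 11 of 29 (37.9%) had a higher share and 0 a lower one, against 15.2% higher and 3.51% lower of 11012 such genes. No test was run on these shares.

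Tnks2 is an example, whose protein-coding share was 60.3%, 38.9% and 67.6% in TCF-1 cKO Post-Tx and 76.6%, 72.4% and 90.9% in WT Post-Tx libraries. It was 86.4%, 80.5% and 83.0% in TCF-1 cKO Pre-Tx and 46.9%, 65.3% and 36.9% in WT Pre-Tx libraries. Btrc followed the same pattern, with 55.5% to 66.1% in TCF-1 cKO Post-Tx libraries, against 86.0% to 88.5% in WT Post-Tx libraries, and 95.6% to 96.8% in TCF-1 cKO Pre-Tx libraries, against 45.4% to 85.3% in WT Pre-Tx libraries. Csnk1d stayed at 98.8% or more in every library, and Myc at 100%. Some gene sums rest on noncoding transcripts, since 94.87% of Lrp5 counts lay on the nonsense-mediated decay transcript Lrp5-204 and 48.89% of Dvl1 counts on the retained intron transcript Dvl1-205. The library with the highest olfactory receptor sum, 12000 CPM, had the lowest protein-coding share, 83.9%, and the next highest sum, 7010 CPM, went with the next lowest share, 85.1%. What links these measures was not tested.

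**Figure D5:**
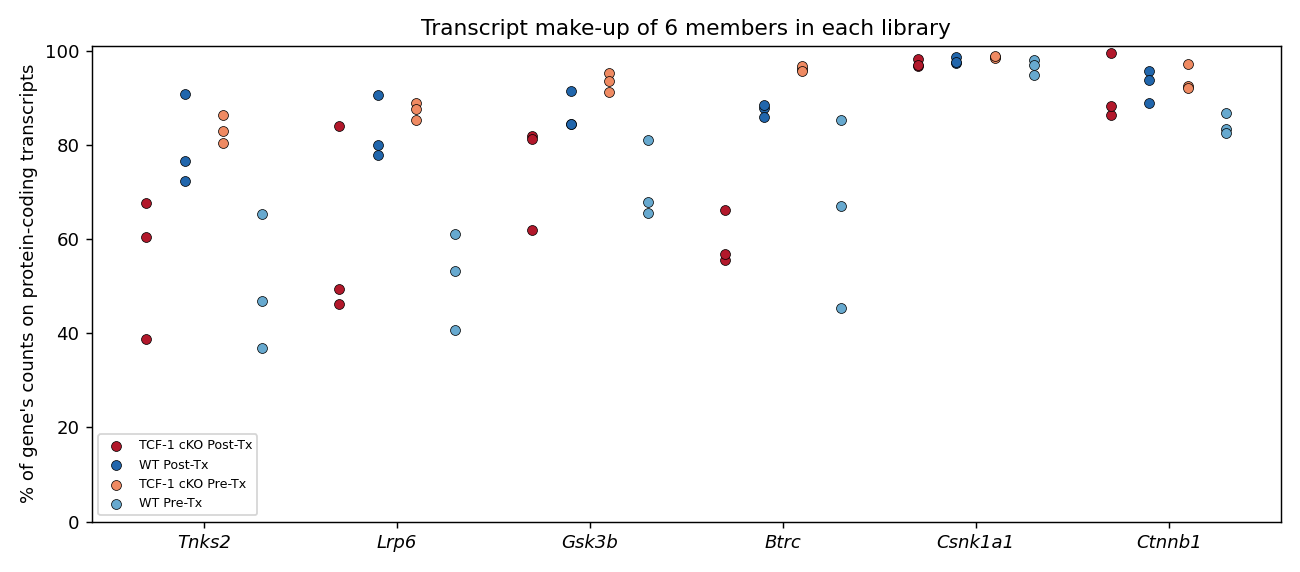
Percent of each gene's counts on protein-coding transcripts (vertical axis) for 6 members (horizontal axis), 1 point per library, colored by group. Tnks2 runs from 36.9% to 90.9% and is lower in TCF-1 cKO than in WT after transplant and higher before it, while Csnk1a1 stays at 94.9% or more.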

How the data were processed

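RNA of sorted donor T cells was measured in 12 libraries. The authors prepared cDNA with a SMART-Seq kit and Nextera XT libraries, sequenced paired ends, and ran kallisto 0.46.2 per the labels, which name mm9 as the build. No source used here names the transcript release. The authors deposited kallisto's estimated counts per transcript, not normalized. They also deposited its TPM, scaled for length and depth. Of 117497 transcripts, 116428 (99.1%) matched GENCODE M21 (GRCm38) by identifier without version, and the rest held 0.282% to 0.386% of counts and were left out. Estimated counts were summed over 35907 genes and rounded. The kit does not mark strand, so overlapping antisense genes cannot be told apart.

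Depth was 18022093 to 23098887 counts in TCF-1 cKO Post-Tx, 27109156 to 49486745 in WT Post-Tx, 20183939 to 25756488 in TCF-1 cKO Pre-Tx libraries, against 17103415 to 19691807 in WT Pre-Tx libraries. With R 4.3.3, edgeR 4.0.16 gave TMM factors, a filter on low counts and quasi-likelihood tests, with p-values adjusted by Benjamini-Hochberg over all genes tested. Genotype was tested in the 6 libraries of each stage, and the interaction and transplant effects in all 12. Calls needed an adjusted p under 0.05, and for transplant also an absolute log2 change of 1 or more. The SE is the fold change over the square root of F. Alternatives used limma 3.58.1, DESeq2 1.42.0, other scalings and filters (no filter, or a mean CPM of at least 10), protein-coding transcripts, log2(TPM + 1) with a mean TPM of at least 1, a replicate block and libraries left out. Figures used matplotlib 3.10.9. The pipeline was tested on simulated data.

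The members and lists were chosen with earlier results of these data known. Named genes are Ctnnb1, Wnt4, Axin2 and Myc, every member called by genotype or interaction, the called members with the 6 largest rises and 6 largest falls in WT with transplant, and up to 4 called genes per list and stage. Other genes named, among them Wnt5a, Porcn, Fzd6, Lrp5 and Tnks2, and the members called with transplant in TCF-1 cKO only, were chosen after their values were seen. Replicates of a group correlated at 0.869 to 0.955 (Pearson, log2 CPM), and no library was a copy of another. P-values rest on the spread between these libraries. The paper states that the RNA-seq and its sort were each done once, so they do not cover variation between repeats of the experiment.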

Additional observations from a re-analysis of the deposited data

Results flagged for a closer look

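For 9 of 40 members (22.5%, against 28.6% of all 21434 genes tested) the effect of TCF-1 loss differed between the stages by the interaction test of edgeR, given here as the Post-Tx minus the Pre-Tx log2 fold change. It was 3.64 for Wnt4, 3.87 for Wnt5a and 6.8 for Porcn, and it was -1.53 for Wls, -1.79 for Csnk1a1, -1.27 for Csnk1d, -2.04 for Ctnnb1, -2.02 for Tle4 and -1.48 for Myc. Groups of 3 libraries were too small for a search for single outlying libraries.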

How the results depend on the processing

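Of the 33 single-gene results under other settings, 533 values kept direction and side of the threshold, 91 kept direction but no longer passed, 1 newly passed (Ctnnb1 Post-Tx with the replicate block) and 2 reversed. Members outside these results also newly passed, most often Wnt10a with transplant in TCF-1 cKO and Tnks2 in WT (8 settings each). The reversals were Axin2 Post-Tx, at 0.06 with upper-quartile normalization and 0.15 on protein-coding transcripts. Called members Pre-Tx (3) were 7 by the DESeq2 Wald test, 5 with no filter and 6 with all 12 libraries in 1 fit, and 0 to 3 with a library left out (0 without WT Pre-Tx replicate 1, 1 without TCF-1 cKO Pre-Tx replicate 2 or WT Pre-Tx replicate 3). Called members Post-Tx (2) were 1 each with upper-quartile normalization, a mean CPM of at least 10 and protein-coding transcripts, 0 each on log2(TPM + 1) and with all 12 libraries in 1 fit, and 0 to 4 with a library left out (0 without TCF-1 cKO Post-Tx replicate 2 or WT Post-Tx replicate 1, 4 without WT Post-Tx replicate 2). Called interactions (9) were 2 at a mean CPM of at least 10 and 5 on log2(TPM + 1), and 7 to 10 with a library left out. Transplant calls were 5 in TCF-1 cKO (against 9) and 3 in WT (against 5) at a mean CPM of at least 10, and 7 to 12 in TCF-1 cKO and 3 to 6 in WT with a library left out (3 without WT Post-Tx replicate 1 or 3). The cause of these shifts was not tested. With the replicate number as a block, 5 members were called Post-Tx (Wnt4, Znrf3, Csnk1d, Ctnnb1 and Myc). With group means removed, same-numbered libraries correlated at -0.272 to 0.248 over all groups. The Post-Tx pairs 1, 2 and 3 had -0.000186, 0.248 and 0.108. The labels do not give the numbers as pairs, so they were not taken as such, and whether Post-Tx libraries are paired cannot be told.

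Upper-quartile normalization moved the median log2 fold change of all genes by -0.36 Pre-Tx, 0.28 Post-Tx, 0.66 in the interaction, 0.37 with transplant in TCF-1 cKO and -0.29 in WT. Genes called Post-Tx numbered 1283, but 3785 by the DESeq2 Wald test, 2850 by limma with voom, 3257 with the block, 798 with upper-quartile normalization, 149 on protein-coding transcripts and 137 with all 12 libraries in 1 fit, and 6 to 3209 with a library left out (6 without TCF-1 cKO Post-Tx replicate 2, 64 without WT Post-Tx replicate 1). Pre-Tx, 2413 genes became 4066 by the DESeq2 Wald test and 1331 on protein-coding transcripts, and 14 to 2611 with a library left out (14 without WT Pre-Tx replicate 1, 517 without TCF-1 cKO Pre-Tx replicate 1). With a library left out, 3013 to 7297 genes were called in the interaction (6134 with all), and with transplant 2607 to 5434 in TCF-1 cKO (5091 with all) and 2617 to 4805 in WT (4169 with all). Ligands and Frizzled genes rest on few counts, which limits what can be detected.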
